A study of Mus musculus with 4 samples.

Results

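The MYC, MAX and MXD genes encode a network of transcription factors, and their mRNA was followed here in muscle stem cells (MuSCs) given a bone morphogenetic protein. The 10 genes Myc, Mycn, Mycl, Max, Mxd1, Mxd3, Mxd4, Mxi1, Mnt and Mlx were taken by gene name from a table of 55267 entries, and each name matched 1 entry. The genes were chosen by name and family, with earlier results of these libraries known, and the values in view were their TPM in treated against control cells. That contrast is therefore a description. Its intervals and counts past a threshold describe the spread of the libraries and are not tests of these genes.

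Mononucleated muscle cells came from female mice aged 9 weeks with the genotype C57BL/6N(Tg(Pax7-EGFP)Tajb), in which Pax7 sequences drive a green fluorescent protein, and GFP-positive cells were sorted after a first day in culture. All cells, controls included, were then kept for 6 h without serum and with 200 ng/mL of the soluble receptor BMPR-1A-Fc, which binds BMPs left in the medium. BMP6 at 100 ng/mL was given to 2 cultures and its vehicle, 4 mM HCl with 0.1% BSA, to the other 2, each for 1 h. Each replicate number in the labels names 1 batch with 1 treated and 1 control library, and the sources used here do not say how many mice went into a batch, so p-values measure the spread between these libraries.

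MYC, MYCN and MYCL are activators that bind DNA only after pairing with MAX through a helix-loop-helix and leucine zipper. The MXD proteins, MXI1 and MNT compete for MAX and recruit corepressors to the same DNA element, the E-box CACGTG. MLX is a relative of MAX that pairs with some of these repressors and with glucose-responsive partners. In muscle, MYC is known from growing and dividing myoblasts, and the MXD proteins are best known from cells that leave the cell cycle or differentiate.

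The E-box was looked for in the promoters of the network genes, since its own factors read it. RefSeq promoters (assembly GRCm38.p6, 250 bases before to 50 after each start) were at hand for 9 of the 10 genes in 11 promoters, with no entry for Myc. CACGTG, which reads alike on both strands, was in 4 of these 11 promoters and in 7.15% of all 32851 promoters. The matches are written 5′ to 3′ on the strand of the gene with the E-box in capitals. Each line gives the window and the position of the first E-box base from the start site.
Mxd4, chr5:34187912-34187941, minus strand, position -219: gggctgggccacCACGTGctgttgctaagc
Mnt, chr11:74830789-74830818, plus strand, position -123: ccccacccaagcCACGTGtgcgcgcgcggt
Mlx, chr11:101087238-101087267, plus strand, position -40: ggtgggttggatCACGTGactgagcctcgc
Max, chr12:76962234-76962263, minus strand, position -3: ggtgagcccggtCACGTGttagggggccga

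The element GGCGCC, a core of sites bound by E2F factors, was searched in the same promoters. It was in 4 of the 11, which belong to Max, Mxi1 and Mycn, and in 11.9% of all promoters. A match is a string of letters in a window, and no binding was measured in these libraries.

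The 4 libraries held 108 M to 112 M reads (M, 1000000) as rebuilt from coverage, and 13002 to 13203 entries had at least 1 TPM (transcripts per 1000000, a level scaled to transcript length). All 7 MuSC markers had a mean of at least 1 TPM over the libraries, with summed levels of 1977 and 2301 TPM after BMP6 and 2190 and 2435 TPM in controls. Fibroblast markers passed that level in 4 of 6 genes, led by Col1a2 at up to 240 TPM, with sums of 291 to 406 TPM after BMP6 and 330 to 403 TPM in controls. Endothelial and immune markers passed it in 1 of 5 genes each and summed to at most 2.16 and 1.79 TPM, Schwann cell markers in 0 of 4 with at most 0.601 TPM, and 1 endothelial and 1 Schwann cell marker were at 0. Pericyte markers passed in 2 of 4 and were the one list whose sums did not overlap, at 8.61 to 9.44 TPM after BMP6 and 7.04 to 8.27 TPM in controls. Their part in the values below was not tested. The treatment showed in 6 known BMP response genes (Id1, Id2, Id3, Smad6, Smad7 and Atoh8), which were all higher after BMP6 by 1.26 to 2.46 on the log2(TPM + 1) scale, and 5 of the 6 passed an adjusted p of 0.1 in limma (Smad6, adjusted p = 0.270, passed with the replicate block).

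Myc mRNA was lower after BMP6 in both batches, Mycl mRNA was higher in both, and the other 7 tested genes had overlapping groups. Across the genome 28.3% of the 13128 entries with a mean of at least 1 TPM had groups that did not overlap, 16.6% higher and 11.6% lower after BMP6, against 2 of the 9 tested network genes. The differences had the same sign in both batches in 6 of 9 genes and in 60.6% of all entries. Mycl, Mxd3 and Mlx were higher in both batches, as were 35.0% of all entries, and Myc, Mycn and Mxd4 were lower in both, as were 25.7%. No network gene met the calling rule of at least a 2-fold change with an adjusted p under 0.1, which 24 named entries met, or 0.225% of the 10645 tested. At any fold size 0 of the 9 passed the adjusted p in limma, against 0.244% of entries. At an unadjusted p under 0.05 there was 1 of 9, Myc, against 3.20% of entries. With the batch as a replicate block there was also 1 of 9 past the adjusted p, Myc, against 1.64% of entries in either direction and 0.404% that were lower. Since the genes were chosen with this contrast known, nothing is read from these counts.

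**Figure D1:**
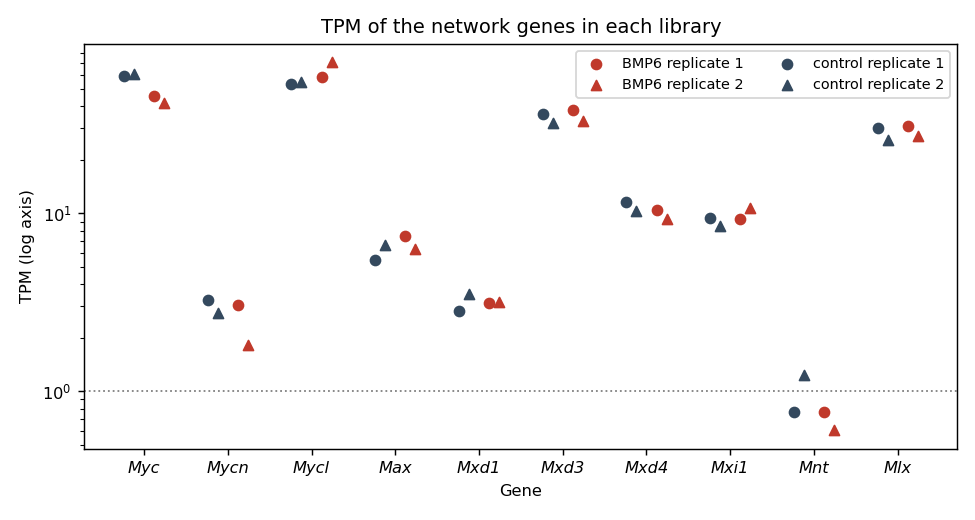
TPM of each network gene (log axis) in the 4 libraries, with circles for replicate 1, triangles for replicate 2, dark points for controls and red points for BMP6. Both red points of Myc lie below its dark points, both red points of Mycl lie above, and Mnt lies around the dotted line at 1 TPM, the limit for testing.

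Myc is the broadly expressed activator of the network and an immediate early gene with a short-lived mRNA. It lies at chr15:61857240-61862223 on the plus strand of GRCm39. Its level was 45.6 and 41.9 TPM after BMP6 (replicates 1 and 2) and 59.0 and 60.7 TPM in controls. Both treated libraries were below both controls, and the controls lay closer to each other than the treated libraries did. The treated mean was 43.7 ± 2.66 TPM and the control mean 59.9 ± 1.15 TPM (SD, n = 2 each), a ratio of 0.731. The log2(TPM + 1) scale understates a change of a low gene, the more so the lower its level. Mycn, for one, went from -0.24 to -0.33 with 0.1 added in place of 1. On the log2(TPM + 1) scale the Myc difference was -0.45 with a standard error of 0.10 and a 95% interval of -0.68 to -0.21. It was -0.37 within batch 1 and -0.53 within batch 2. The interval was -0.62 to -0.27 with the replicate block. Of all tested entries 2.35% had a larger difference in size. In bulk RNA, a smaller number of cells with the transcript and less transcript per cell cannot be told apart.

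The reads behind Myc were numerous. Coverage corresponded to 6439 and 5643 reads after BMP6 and to 8487 and 8442 in controls. The lower level after BMP6 was seen along the main transcript Myc-205, whose 3 exons had 0.689, 0.661 and 0.733 times the control coverage. Coverage here is the mean depth of aligned bases assigned to Myc-205, not scaled to library size. The exon ratios therefore also reflect the share of Myc TPM held by this transcript. That share was 67.6% and 56.2% after BMP6 and 63.7% and 63.6% in controls. The ratios do not give the change in depth of all Myc reads.

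Mycl encodes L-MYC and lies at chr4:122889737-122896278 on the plus strand. Its level was 58.1 and 70.6 TPM after BMP6 and 53.6 and 54.7 TPM in controls. Both treated libraries were higher than both controls, replicate 2 by more than replicate 1. The means were 64.3 ± 8.81 TPM (SD, n = 2) and 54.1 ± 0.813 TPM (SD, n = 2), a ratio of 1.19. The log2 difference was 0.24 with a standard error of 0.12 and an interval of -0.05 to 0.53, or 0.06 to 0.42 with the replicate block. It was 0.12 in batch 1 and 0.36 in batch 2.

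Mycn encodes N-MYC, known from embryonic and neural progenitors, and lies at chr12:12986094-12991915 on the minus strand. Its level was 3.06 and 1.82 TPM after BMP6 and 3.26 and 2.76 TPM in controls. Treated replicate 2 stood lowest, and the groups overlapped. The log2 difference was -0.24 with a standard error of 0.21 and an interval of -0.76 to 0.28. Without treated replicate 2 the sign turned and the difference was 0.02. Between 292 and 557 rebuilt reads per library stood behind these values.

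**Figure D2:**
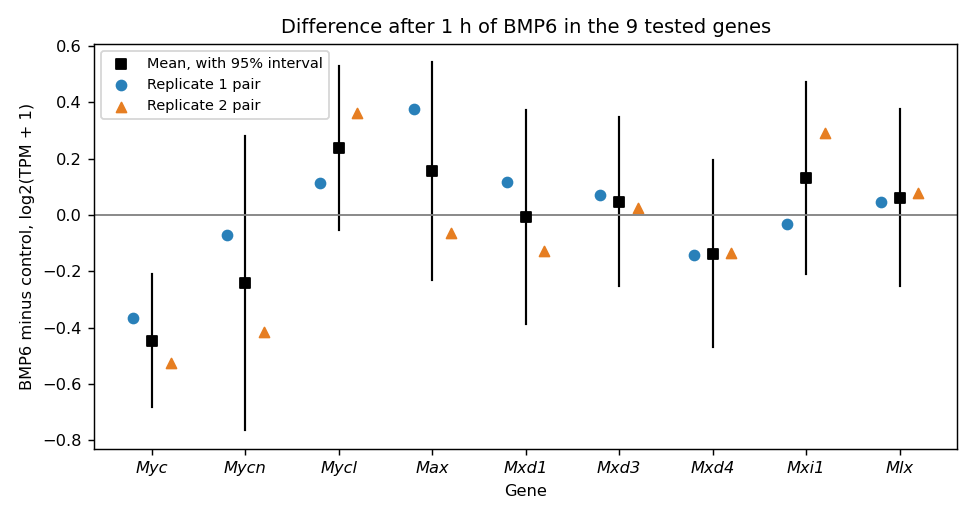
BMP6 minus control in log2(TPM + 1) for the 9 tested genes, with the mean and its 95% interval (black) and the differences within batch 1 (circles) and batch 2 (triangles). The interval of Myc, -0.68 to -0.21, is the one that leaves out 0.

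TPM is scaled to transcript length, so levels of different genes can be set side by side where coverage is even along the transcript. The summed TPM of Myc, Mycl and Mycn was 107 and 114 after BMP6 and 116 and 118 in controls. Myc made up 42.7% and 36.6% of that sum after BMP6 and 51.0% and 51.4% in controls. Mycl made up 54.4% and 61.8% after BMP6 and 46.2% and 46.3% in controls. The ratio of Mycl to Myc was thus 1.27 and 1.69 after BMP6 and 0.907 and 0.902 in controls. In TPM, Myc was the more abundant of the pair in both controls and Mycl in both treated libraries. Coverage along Mycl was not even. Coverage was read for the exons of its main transcript, as assigned to that transcript and not to the whole gene. The last exon (2581 bases) had a coverage of 280 and 355 after BMP6 and 345 and 267 in controls. The exon before it had 77.9 and 92.7 after BMP6 and 90.8 and 66.9 in controls. The order of the pair and the size of the ratio therefore hold for TPM and may not hold for numbers of transcripts. The share of Mycn was between 1.59% and 2.86% in all 4 libraries, with overlapping groups. These shares rest on the same Myc and Mycl values as above and add no further evidence.

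**Figure D3:**
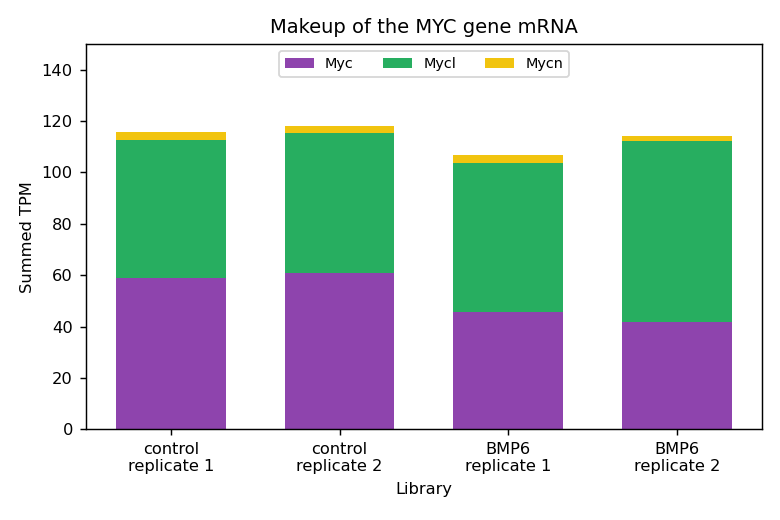
Summed TPM of Myc (purple), Mycl (green) and Mycn (yellow) in each library. The sum is 107 to 118 TPM in the 4 libraries, and the Myc part is 36.6% and 42.7% of the bar after BMP6 and 51.0% and 51.4% in controls.

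Max encodes the shared partner of activators and repressors and lies at chr12:76984043-77008975 on the minus strand. Its level was 7.42 and 6.30 TPM after BMP6 and 5.48 and 6.63 TPM in controls. The groups overlapped, and the batches differed in sign (0.38 and -0.06 on the log2 scale). The mean difference was 0.16 with a standard error of 0.16 and an interval of -0.23 to 0.54. Max mRNA came to 0.0695 and 0.0551 times the summed TPM of the MYC genes after BMP6 and 0.0473 and 0.0561 times in controls, again with overlapping groups.

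Nearly all Max TPM was in a pair of transcripts. They differ by an exon of 27 bases, chr12:77008037-77008063 in GRCm39, which adds 9 codons ahead of the DNA-binding region without changing the reading frame. The exon is given first and then the 15 bases on either side of the junction that forms when it is skipped, both 5′ to 3′ on the minus strand, with the exon in capitals.
Max exon: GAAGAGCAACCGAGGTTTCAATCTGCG
Max junction without it: gaggtggagagcgacgctgacaagcgggct

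Max-202, with the exon and 480 coding bases, was 38.2% and 47.3% of Max TPM after BMP6 and 49.9% and 45.7% in controls. Max-201, without it and with 453 coding bases, was 61.8% and 52.7% after BMP6 and 49.1% and 54.3% in controls. The groups overlapped for each transcript, and the share is StringTie's estimate from 677 to 902 rebuilt reads per library.

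Mxd3 had the highest TPM of the repressors in the network. It lies at chr13:55472981-55477571 on the minus strand and is known as an MXD gene of cycling progenitors. Its level was 38.2 and 32.9 TPM after BMP6 and 36.3 and 32.4 TPM in controls. Replicate 1 was higher than replicate 2 in both groups, and the groups overlapped. The log2 difference was 0.05 with a standard error of 0.12 and an interval of -0.25 to 0.35. Its sign turned without treated replicate 1 (-0.06) and without control replicate 2 (-0.03). The libraries carried no strand information, and 105 exon bases of Mxd3 (7.91%) overlap Prelid1 on the other strand, which was at 279 to 335 TPM. The Mxd3 exon with the overlap had a coverage of 245 and 204 after BMP6 and 236 and 201 in controls. The next exon had 306 and 256 after BMP6 and 307 and 256 in controls. The overlap is 105 of 731 exon bases, so these means cannot show whether reads of Prelid1 were added. In a later annotation (GENCODE M39), a Prelid1 transcript aligns with a Mxd3 transcript over 482 bases at 99.4% identity.

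Mxd4 lies at chr5:34331231-34345064 on the minus strand and is an MXD gene of resting and differentiated cells. Its level was 10.4 and 9.29 TPM after BMP6 and 11.6 and 10.3 TPM in controls. Each treated library was lower than the control of its batch by nearly the same amount (-0.14 and -0.13 on the log2 scale), but the groups overlapped. The mean difference was -0.14 with a standard error of 0.14 and an interval of -0.47 to 0.20. Its last exon of 3263 bases had a coverage of 49.4 and 44.1 after BMP6 and 53.4 and 51.8 in controls. The exon before it had 254 and 189 after BMP6 and 256 and 215 in controls. The Mxd4 TPM averages over this uneven coverage, and so does its place below Mxd3. Stretches of Mxd4 of at least 100 bases align at 90% identity or more with 31 other genes, 12 of them tested, so reads in those stretches have an uncertain origin.

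Mxi1 encodes a repressor of the same kind and lies at chr19:53298949-53364241 on the plus strand. Its level was 9.25 and 10.7 TPM after BMP6 and 9.48 and 8.54 TPM in controls. Treated replicate 2 stood highest, and the groups overlapped. The log2 difference was 0.13 with a standard error of 0.14 and an interval of -0.21 to 0.47. A stretch of 679 bases is 90.6% identical to the pseudogene Gm13735, which was listed at 0 TPM in all libraries.

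Mxd1 had the lowest TPM of the tested repressors. It lies at chr6:86624024-86646143 on the minus strand and had 3.15 and 3.16 TPM after BMP6 and 2.83 and 3.54 TPM in controls. Both treated libraries lay between the 2 controls. The log2 difference was -0.01 with a standard error of 0.16 and an interval of -0.39 to 0.37. It was 0.12 without control replicate 2.

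Mnt, a broadly expressed antagonist of MYC, lies at chr11:74721746-74736551 on the plus strand and was near the limit of what these libraries show. Its level was 0.769 and 0.603 TPM after BMP6 and 0.769 and 1.24 TPM in controls, from 167 to 351 rebuilt reads. The mean of 0.846 TPM was below the filter of 1 TPM, so Mnt was not tested. Control replicate 2 stood highest, and the other 3 libraries lay between 0.603 and 0.769 TPM. The last exon of 3175 bases had a mean coverage of 6.82 and 5.11 after BMP6 and 6.93 and 11 in controls, while each of the 5 other exons had at most 0.976 in every library. These values therefore describe the last exon more than the whole transcript.

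Mlx lies at chr11:100978103-100983033 on the plus strand and had 31.1 and 27.3 TPM after BMP6 and 30.1 and 25.8 TPM in controls. As for Mxd3, replicate 1 was higher than replicate 2 in both groups, and the groups overlapped. The log2 difference was 0.06 with a standard error of 0.13 and an interval of -0.25 to 0.38, and it was -0.03 without treated replicate 1 and -0.05 without control replicate 2. Mlx shares 385 exon bases (19.4%) with Psmc3ip on the other strand, which was at 21.8 to 22.7 TPM. In a later annotation (GENCODE M39), a Psmc3ip transcript aligns with a Mlx transcript over 1111 bases at 100% identity. The stretch in which unstranded reads have an uncertain origin can thus be longer than the 385 bases.

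Ordered by the mean of the 4 libraries, the levels were 59.2 TPM for Mycl, 51.8 for Myc, 35 for Mxd3, 28.6 for Mlx, 10.4 for Mxd4, 9.49 for Mxi1, 6.46 for Max, 3.17 for Mxd1, 2.73 for Mycn and 0.846 for Mnt. The ranges of neighbours overlapped for Mycl and Myc, for Mxd4 and Mxi1 and for Mxd1 and Mycn. The other neighbours had separate ranges. This order and the sums below are of TPM, which averages over uneven coverage in genes such as Mycl, Mxd4 and Mnt. The summed TPM of the 5 repressor genes (Mxd1, Mxd3, Mxd4, Mxi1 and Mnt) was 61.8 and 56.6 after BMP6 and 61.0 and 56.0 in controls, of which Mxd3 made up 57.8% to 61.8%. Divided by the sum of the MYC genes this gave 0.579 and 0.496 after BMP6 and 0.526 and 0.474 in controls. The groups overlapped, with means of 0.537 ± 0.0587 and 0.50 ± 0.0371 (SD, n = 2 each).

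The transcripts of the members were compared next, as the share of the TPM of their gene. Mxd1, Mxd3 and Mnt had 1 listed transcript each, and Mxd4-201 held 97.2% and Mycn-201 93.2% of their genes' summed TPM, with 6.79% in Mycn-202. Myc-205 was the main Myc transcript with 67.6% and 56.2% after BMP6 and 63.7% and 63.6% in controls. Myc-202 held 8.99% and 17.6% after BMP6 and 12.1% and 13.2% in controls. Myc-206, whose coding part has 1359 instead of 1317 bases, held 8.06% and 16.1% after BMP6 and 11.4% and 12.9% in controls. Myc-204, which begins close to the second exon of Myc-205, held 13.0% and 8.88% after BMP6 and 11.3% and 10.1% in controls. For all 4 the controls lay between the 2 treated libraries.

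Mycl is read from transcripts with the same 1104 coding bases. Mycl-202, with 3 exons, held 64.0% and 69.5% after BMP6 and 83.6% and 65.6% in controls. Control replicate 1 stood apart from the other 3 libraries. In that library Mycl-201, which has 2 exons instead of 3, was at 8.78 TPM, against 18.8 TPM in the other control and 20.9 and 21.5 TPM after BMP6. The TPM of Mycl-202 overlapped between groups, with 37.2 and 49.0 after BMP6 and 44.8 and 35.9 in controls, so the Mycl groups that did not overlap at the gene level did overlap for the main transcript.

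Mxi1 was read from separate start sites. Mxi1-203 held 48.3% and 48.2% of Mxi1 TPM after BMP6 and 52.0% and 46.8% in controls. Mxi1-201, which begins upstream and has 885 instead of 684 coding bases, held 32.6% and 44.1% after BMP6 and 44.0% and 52.5% in controls, and the groups of both transcripts overlapped. Mxi1-208, with 546 coding bases, held 17.8% and 4.57% after BMP6 and 2.19% and 0.156% in controls, so both treated libraries were higher, in TPM 1.65 and 0.489 against 0.207 and 0.0133. This is a low transcript that shares most exons with the others, and no test was made of transcript shares. Mlx-201, with 894 coding bases, held 80.8% and 83.6% of Mlx after BMP6 and 78.5% and 67.4% in controls, and Mlx-202, with 732, held 17.3% and 14.8% after BMP6 and 20.1% and 31.1% in controls. Their groups did not overlap either, with control replicate 2 farthest from the rest. Of all tested gene entries 28.3% had groups without overlap, and the share among all transcripts was not determined, so nothing is read from these.

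**Figure D4:**
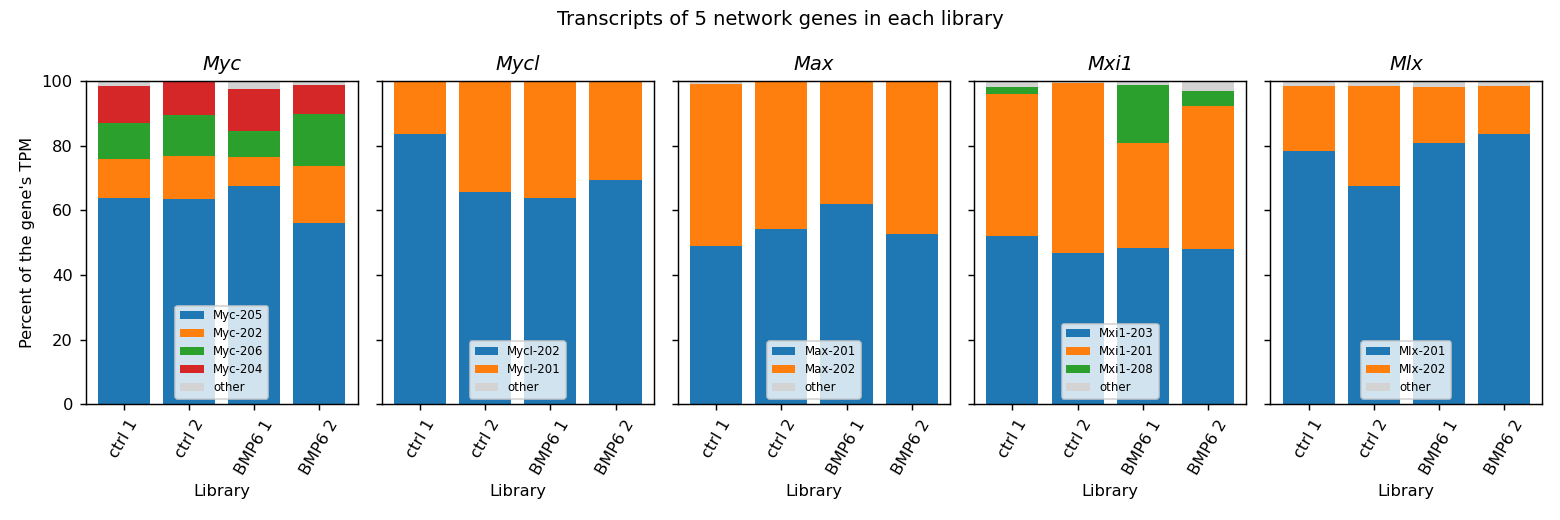
Share of each transcript in the TPM of its gene (percent) in the 4 libraries, for the 5 genes whose main transcript held the smallest shares. The Myc-205 share is 63.7% and 63.6% in controls and 67.6% and 56.2% after BMP6, and Mycl-202 is highest, at 83.6%, in control replicate 1.

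The difference between batches is a measure that the choice of genes did not use, so it was tested. Replicate 2 was compared with replicate 1 in limma with treatment as a term. Of all entries 19.8% passed the adjusted p (1496 higher and 1099 lower in replicate 2), against 0 of the 9 network genes. At an unadjusted p under 0.05 there were 3 of the 9 and 29.4% of all entries, so the network genes were near the background. The 3 were lower in replicate 2, Mycn by a log2 difference of -0.35 (standard error 0.13, adjusted p = 0.121), Mxd3 by -0.19 (standard error 0.08, adjusted p = 0.146) and Mlx by -0.20 (standard error 0.08, adjusted p = 0.136). The call depended on the scaling. After centring each library on its median, all 3 passed (Mycn -0.41, Mxd3 -0.24 and Mlx -0.25) and the split of all entries was 952 higher and 1637 lower, and all 3 also passed on FPKM (1244 higher and 1499 lower). After quantile normalization Mycn alone passed, with -0.40 (1208 higher and 1314 lower). Myc differed by -0.04 between batches (standard error 0.08, adjusted p = 0.751) and Mycl by 0.15 (standard error 0.08, adjusted p = 0.242). In 5 of the 9 genes the difference between batches was larger in size than that between treatments. Over all tested entries the median size was 0.135 between batches and 0.088 between treatments. The share of all entries with the larger difference between batches was not determined, so nothing is read from this count.

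The genes around the network were read from lists of textbook members, and in 8 lists 0 genes passed the adjusted p in limma, with 4 of the 82 tested genes (4.88%) at an unadjusted p under 0.05, against 3.20% of all entries. With the replicate block 1 of the 82, Gadd45a, passed the adjusted p, against 1.64% of all entries. The median log2 difference of all tested entries was 0.02, beside which the medians of the lists are given. Leaving out 1 library turned the sign of the median in 7 of the 8 lists, so the range over these fits is given with each median. Standard errors of list genes are from the fit without the replicate block unless the block is named.

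Of 5 further partners of MYC, MAX or MLX, 3 were tested, 1 higher and 2 lower, with a median of -0.10 (-0.31 to -0.06 with 1 library left out). Mga, a large MAX partner, differed by 0.06 (standard error 0.20). Mlxip, which encodes the MLX partner MondoA, differed by -0.21 (standard error 0.14). Bmyc, a MYC relative without the DNA-binding part, had a treated mean of 25.4 ± 5.55 TPM and a control mean of 26.9 ± 2.74 TPM (SD, n = 2 for both).

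All 11 coactivator genes of MYC were tested, 6 higher and 5 lower, with a median of 0.02 (-0.002 to 0.06 with 1 library left out). Wdr5, a chromatin docking factor of MYC, differed by 0.18 (standard error 0.14) and Bptf, a remodeller subunit, by 0.12 (standard error 0.21). Cdk9, the kinase that releases paused polymerase, differed by -0.33, with -0.49 in batch 1 and -0.17 in batch 2. The standard error was 0.33, or 0.09 with the replicate block (adjusted p = 0.200 in limma with the block). Its level was 24 and 46.3 TPM after BMP6 and 34.2 and 52.1 TPM in controls, higher in replicate 2 of both groups. Of 8 genes for corepressors of the MXD proteins and the MYC partner Zbtb17 (MIZ1), 7 were tested, 3 higher and 4 lower, within -0.06 and 0.05 and with a median of -0.02 (-0.07 to 0.04 with 1 library left out). The extremes were Sin3b, the scaffold to which MXD proteins bind, at -0.06 (standard error 0.08) and Zbtb17 at 0.05 (standard error 0.13), and Ncor1, a corepressor of histone deacetylase complexes, was at -0.05 (standard error 0.12).

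Of 13 genes that act on the stability of MYC protein, 12 were tested, 6 higher and 6 lower, with a median of 0.01 (-0.06 to 0.16 with 1 library left out). The median was 0.16 without treated replicate 1 and 0.15 without control replicate 2. Gsk3b encodes the kinase that marks MYC for degradation. It was at 48.8 and 49.0 TPM after BMP6 and 36.4 and 40.4 TPM in controls, without overlap. The log2 difference of 0.34 (standard error 0.10) had an adjusted p of 1.00 in limma, or 0.101 with the replicate block. Fbxw7, the ubiquitin ligase subunit that reads this mark, was at 4.83 and 4.96 TPM after BMP6 and 5.53 and 5.98 TPM in controls, a difference of -0.20 (standard error 0.13). Cip2a, which protects MYC from a phosphatase, differed by 0.19 (standard error 0.12).

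SMAD3 and SMAD4 with E2F4 or E2F5 and the pocket protein p107 are known from other cells as a complex that represses Myc after TGF-β. All 7 genes of that list were tested, 5 higher and 2 lower, with a median of 0.04 (-0.08 to 0.12 with 1 library left out). The largest differences were 0.15 for Tfdp1 (standard error 0.12), the DNA-binding partner of E2F proteins, 0.11 for Smad4 (standard error 0.19) and -0.10 for E2f4 (standard error 0.13).

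Genes that MYC is known to activate, such as those for ribosome assembly, polyamine synthesis and nucleotide supply, differed by -0.29 to 0.24 at 1 h. Of the 32 listed, 31 were tested, 11 higher and 20 lower, with a median of -0.02 (-0.07 to 0.03 with 1 library left out). Ppan, a ribosome assembly factor, was at 67.6 and 74.2 TPM after BMP6 and 80.8 and 93.0 TPM in controls. Its groups did not overlap, and the difference was -0.29 (standard error 0.11, adjusted p = 1.00 in limma, 0.111 with the replicate block). Gnl3, the nucleolar protein nucleostemin, differed by -0.21 (standard error 0.18), and Tfrc, the transferrin receptor, by 0.24 (standard error 0.21).

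Of 7 genes that MYC is known to repress, 3 were higher and 4 lower, with a median of -0.03. That median had no stable sign, at -0.22 without treated replicate 1 or control replicate 2, 0.18 without treated replicate 2 and 0.20 without control replicate 1. Gadd45a, a growth arrest gene, was at 146 and 141 TPM after BMP6 and 106 and 113 TPM in controls. Both treated libraries were above both controls, and the difference of 0.39 (standard error 0.08) had an adjusted p of 0.637 in limma and 0.0284 with the replicate block. Cdkn2b, which encodes the cell cycle inhibitor p15, was lower instead, with 34.1 and 35.5 TPM after BMP6 and 40.6 and 42.5 TPM in controls, a difference of -0.25 (standard error 0.10, adjusted p = 1.00 in limma, 0.226 with the block). Gas1, another growth arrest gene, was at 38.6 and 28 TPM after BMP6 and 46.3 and 35.3 TPM in controls, with overlapping groups. It was lower in both batches (-0.26 and -0.32). The difference of -0.29 had a standard error of 0.20, or 0.08 with the replicate block (adjusted p = 0.163 in limma with the block).

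Of 5 target genes of MLX, 4 were tested and all 4 were lower on average, with a median of -0.08 (-0.20 to 0.03 with 1 library left out). Txnip, a glucose-responsive arrestin, was at 7.70 and 7.80 TPM after BMP6 and 11.5 and 8.54 TPM in controls, without overlap and with a difference of -0.32 (standard error 0.17). Fasn, fatty acid synthase, differed by -0.12 (standard error 0.21), and Acaca, acetyl-CoA carboxylase, by -0.05 (standard error 0.18).

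**Figure D5:**
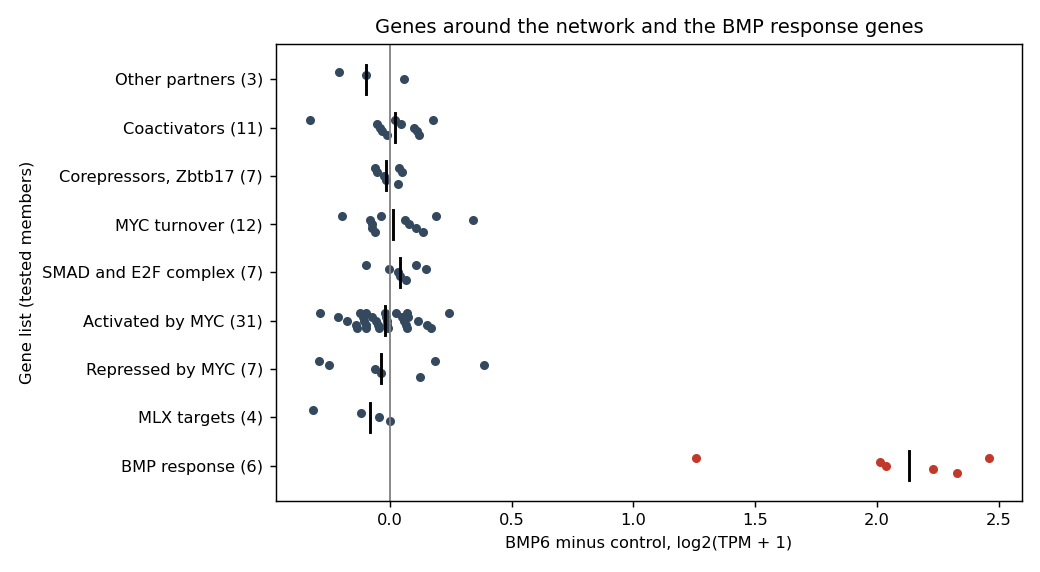
BMP6 minus control in log2(TPM + 1) for each tested gene of the lists around the network (dark points) and of the BMP response genes (red), with the median of each list as a bar and the number of tested genes in brackets. The medians of the network lists lie between -0.10 and 0.04 with all 4 libraries and between -0.31 and 0.20 with 1 left out, and the BMP response genes lie between 1.26 and 2.46.

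The tested entries with the pattern most like that of Myc were Kcns3, Actr3b and Slc25a22. Likeness was the Euclidean distance between log2(TPM + 1) values centred on their mean over the 4 libraries, which was 0.0407, 0.0673 and 0.0751. Kcns3, a potassium channel subunit, was at 1.58 and 1.30 TPM after BMP6 and 2.29 and 2.30 TPM in controls. Actr3b, a relative of an actin-nucleating protein, was at 1.08 and 0.927 TPM after BMP6 and 1.80 and 1.70 TPM in controls. Slc25a22, a mitochondrial glutamate carrier, was at 2.55 and 2.2 TPM after BMP6 and 3.56 and 3.40 TPM in controls. All 3 were at least 10 times less abundant than Myc, so the added 1 shrinks their changes. In TPM all 3 were lower after BMP6 by a larger share than Myc. With 4 libraries many entries can lie close to any pattern.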

How the data were processed

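PolyA RNA from 4 cultures was turned into unstranded libraries with Smart-seq2 and Nextera XT and read as pairs of 100 bases. Per the labels and the methods, the authors aligned reads with STAR 2.7.11a to GRCm39 (GENCODE M32) and quantified each library with StringTie 2.2.1 against the merged annotation. The command lines in the file headers turn off the down-weighting of reads that align more than once. The authors deposited TPM per gene, which sum to 1000000 in each library, and the authors deposited FPKM per gene in a second table. The deposited signal is coverage (mean aligned depth per base), which the authors did not scale to library size. For a transcript and its exons it is the depth that StringTie assigned to that transcript. Transcript values were read from the attribute text of the transcript files. The authors' own comparison ran DESeq2 on read numbers made from StringTie output, and its results were not used.

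Members and gene lists were chosen with earlier results of these data known. The 10 genes were all named. In each list the genes past the adjusted p with or without the block and then the 3 with the largest differences were named, at most 6, with the 3 entries nearest to Myc and all transcripts with at least 5% of their gene. log2(TPM + 1) was fitted for 13128 entries whose mean reached 1 TPM with limma 3.58.1 (R 4.3.3, trended variance, two-sided, Benjamini-Hochberg over all entries), without a batch term. A call took a fold of 2 or more, or 0.5 or less, with adjusted p under 0.1, and 2483 entries with names of non-coding genes or no name were left out of calls. Rebuilt reads are coverage times length over 100 bases, and PCR copies make them overstate the number of molecules.

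In the labels, a replicate number is a batch shared by a treated and a control library, so the numbers pair the samples. Deviations from the group means correlated by 0.563 between libraries of the same number, and the first principal component (54.3% of the variance) separated the numbers and the second (31.7%) the treatments. All 28 listed transcripts were found in GENCODE M39, which gave their names and coding lengths, 10 of them with the same ends. Sequences came from GRCm39 and, for promoters, from RefSeq on GRCm38.p6. Alternatives were a pseudocount of 0.1 or 5, no filter or a mean of 5 TPM, the replicate block, quantile normalization, median centring, FPKM, no variance trend, voom on rebuilt reads, a threshold of 0.05, and leaving out each library.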

Additional observations from a re-analysis of the deposited data

How the results depend on the processing

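Entries called between BMP6 and control numbered 24 and became 15 with a pseudocount of 5, 15 with a mean of at least 5 TPM, 37 with the replicate block, 12 without a variance trend, 60 with voom and the replicate block, 11 at an adjusted p under 0.05 and 18 to 34 when 1 library was left out. Without the filter limma called 0 of 28856 entries, with 1212 at an unadjusted p under 0.05. Network genes past the adjusted p numbered 0, but 1 (Myc) with the replicate block and 1 with voom and the block, and 0 were called at 2-fold under any setting. List genes past it numbered 1 with the block (Gadd45a) and 3 with voom and the block (Gadd45a, Gas1 and Gsk3b). Between batches 2595 entries passed, but 122 without the filter, 1293 without a variance trend, 1496 at an adjusted p under 0.05 and 607 without the treatment term. Network genes past the adjusted p between batches numbered 1 with quantile normalization, 3 with median centring and 3 on FPKM. The cause of these shifts was not tested. Leaving out 1 library from the comparison of batches could not be fitted, since no residual degrees of freedom remained.

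Mycn, Mxd1, Mxd3 and Mlx turned sign with 1 library left out. Myc kept its sign in all 16 alternatives (-0.51 to -0.38), as did Mycl (0.10 to 0.38), Max (0.04 to 0.27), Mxd4 (-0.22 to -0.06) and Mxi1 (0.04 to 0.23). For log2(TPM + 1) the filter, the block, the variance trend and the threshold cannot change the difference of a gene. Leaving out 1 library cannot turn the sign of Myc or Mycl either, since their groups do not overlap. The kept signs of Myc and Mycl are therefore no further evidence. With 2 libraries a group the spread of a single gene is poorly known, and genes near 1 TPM such as Mnt rest on few reads.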
